A study of Mus musculus with 28 samples.

Results

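Cxcl1, Cxcl2, Cxcl3 and Cxcl5 encode the CXC chemokines that draw neutrophils, and these 4 genes were taken by symbol, whatever their values, from the 40021 genes of the deposited expression table. The table holds mRNA-Seq of tdTomato-high, DRAQ7-negative live cells sorted as microglia from 28 single retinas of male Cx3cr1CreER:R26-tdTomato heterozygous mice on the C57BL/6 background. In this line an inducible Cre under the Cx3cr1 promoter switches on the red reporter tdTomato, so every group, naïve included, carried both alleles and received tamoxifen, here as eye drops. Endotoxin-induced uveitis (EIU) is an acute, self-limiting inflammation of the eye brought on by injecting lipopolysaccharide (LPS), the outer-membrane glycolipid of Gram-negative bacteria. Retinas were collected from 10 naïve eyes, which had no injection, and at 4 h (n = 6), 18 h (n = 5) and 2 weeks (n = 7) after LPS. No eyes injected with vehicle were included among the 28, so LPS and the injection itself cannot be told apart. The retinas came from 2 experiments. Experiment 1 supplied 6 of the naïve retinas, 3 of those at 4 h, 4 of those at 18 h and 4 of those at 2 weeks, and experiment 2 supplied the rest. The labels do not tie retinas to mice, so some retinas may come from the same mouse. The p-values measure the spread between these retinas and would then be too small.

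The CXC chemokines are small secreted proteins named for a pair of cysteines parted by a single residue. Those with the motif Glu-Leu-Arg before the first cysteine bind the receptor CXCR2 on neutrophils and guide them out of vessels and into tissue. Cxcl1 (also called KC) and Cxcl2 (MIP-2) are the early, LPS-inducible mouse ligands, Cxcl3 is a close relative, and Cxcl5 (LIX) is best known from epithelial cells. Their transcripts are controlled by NF-kappa B, which is activated downstream of TLR4, the LPS receptor, and by signals that stabilise or destroy the mRNA.

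The 4 genes lie on the + strand of mouse chromosome 5 within 146.6 kb (GRCm38, GENCODE M21). Cxcl5 is at chr5:90759360-90761624, Cxcl3 at chr5:90786103-90789600, Cxcl1 at chr5:90891241-90893115 and Cxcl2 at chr5:90903871-90905938. Among the members Cxcl1 and Cxcl2 lie closest together, with starts 12.6 kb apart. RefSeq promoter windows, from 250 bases before to 50 after the start (GRCm38.p6), matched 3 of the 4 members, namely Cxcl1, Cxcl2 and Cxcl3. A 120-base stretch of each is given below because all of them hold the same 10 letters, GGGAATTTCC, which fit the NF-kappa B type pattern (GGGA, any 4 bases, then CC) and are printed in capitals. The stretches are chr5:90785981-90786100 for Cxcl3, chr5:90891125-90891244 for Cxcl1 and chr5:90903779-90903898 for Cxcl2, all on the + strand, 5′ to 3′.
Cxcl3: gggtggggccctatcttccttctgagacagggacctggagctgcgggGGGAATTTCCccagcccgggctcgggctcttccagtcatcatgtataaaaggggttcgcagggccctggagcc
Cxcl1: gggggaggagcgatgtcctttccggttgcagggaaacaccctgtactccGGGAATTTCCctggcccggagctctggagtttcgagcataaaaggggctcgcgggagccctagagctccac
Cxcl2: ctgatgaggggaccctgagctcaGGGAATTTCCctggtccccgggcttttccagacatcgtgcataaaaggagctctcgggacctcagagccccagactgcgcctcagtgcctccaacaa

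Counted from the RefSeq start of each window, which is not the GENCODE start given above, the capitals began at -73 in Cxcl3, -71 in Cxcl1 and -97 in Cxcl2. Searched on both strands, the NF-kappa B type pattern was in 3 of 3 member windows and in 20.7% of 32851 windows of 27025 genes. Its minus-strand match in each member, which reads GGAATTTCCC on the + strand, overlapped the capitals. Cxcl1 held a further match, GGGAAACACC, nearer its 5′ end. The exact letters GGGAATTTCC, chosen after the members' sequences were seen, were in 0.0883% of windows. TATAAA was found in Cxcl3 alone of the 3 members and in 13.6% of windows, and TGACTCA, the AP-1 pattern, in 0 of 3 and in 5.2%. A match describes letters and not a bound site.

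Each retina had between 7510000 and 19700000 alignments, and the 6 retinas at 4 h had 10500000 to 19700000. Levels are RPKM, reads scaled to transcript length and library depth, which are per length and can be set side by side between genes. From the alignments and the transcript lengths, 1 read was worth between 0.0533 and 0.14 RPKM of Cxcl1, 0.0273 and 0.0716 of Cxcl2, 0.05 and 0.131 of Cxcl3, and 0.0322 and 0.0845 of Cxcl5. A level of 0 therefore means that no read was assigned at this depth, or that the estimate failed. Cxcl2 and Cxcl3 shared 101 stretches of 75 bases, the read length, of 2209 in Cxcl2 and 3637 in Cxcl3 transcripts, and no other pair of members shared any. The authors' estimation can divide such reads, so low levels of Cxcl3 are uncertain where Cxcl2 is high.

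Cxcl2 was the most abundant member and was present in all 6 retinas at 4 h. Its levels at 4 h were 60.1, 19.1 and 6.77 RPKM in experiment 1 and 226.7, 781 and 268 RPKM in experiment 2. In naïve retinas it ranged from 0 to 0.817 RPKM with a median of 0.0271, and 5 of 10 were above 0. The lowest retina at 4 h was thus above the highest naïve retina. In these bulk libraries, more cells that express a gene and more RNA per cell cannot be told apart. The group means were 226.9 ± 293 RPKM at 4 h (SD, n = 6) and 0.216 ± 0.317 RPKM in naïve retinas (SD, n = 10). The level of 781 RPKM in retina 5 corresponded to about 19700 reads, and 6.77 RPKM in retina 3 to about 167.

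Cxcl1 was nearly silent in naïve retinas, with 0.335 RPKM in retina 2, 0.234 RPKM in retina 8 and 0 in the other 8. These 2 values corresponded to about 2.4 and 2.99 reads. At 4 h it reached 0.877, 5.46 and 3.47 RPKM in experiment 1 and 42.0, 134 and 62.8 RPKM in experiment 2. All 6 retinas at 4 h were above all 10 naïve retinas, although the lowest of them had about 10.7 reads. The mean was 41.4 ± 51.8 RPKM at 4 h (SD, n = 6) against 0.057 ± 0.122 RPKM in naïve retinas (SD, n = 10).

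Cxcl3 was listed at 0 in all 10 naïve and all 7 2-week retinas. At 4 h it was detected in experiment 2, at 0.520, 7.24 and 0.860 RPKM, while in experiment 1 it was at 0, at 6.18e-29, which is a product of the estimation and no read, and at 0. Cxcl5 was seen in a single retina at 4 h, retina 5, with 4.68 RPKM, and in a single retina at 18 h, retina 3, with 0.222 RPKM. It was listed at 0 in the other 26. Retina 5 at 4 h was therefore the highest of all 28 for each of the 4 genes, as the plot of levels by retina shows.

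**Figure D1:**
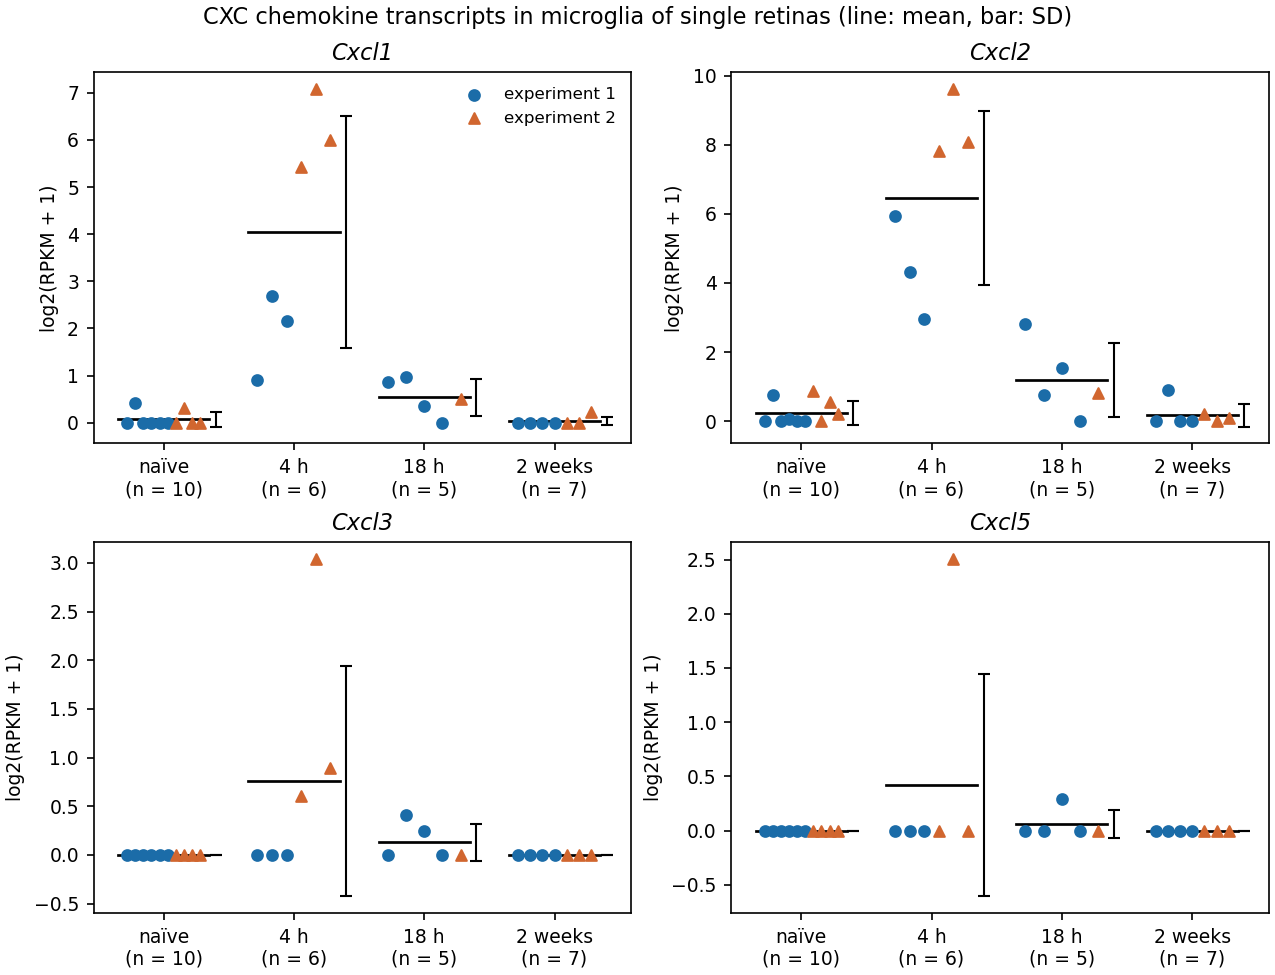
Level of each member in each retina as log2(RPKM + 1), by group, with circles for experiment 1 and triangles for experiment 2. Lines mark group means and bars the SD. The 4 h retinas of experiment 2 sit above those of experiment 1 for Cxcl1, Cxcl2 and Cxcl3, and Cxcl5 is above 0 in 1 retina at 4 h and in 1 at 18 h.

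Cxcl1 and Cxcl2 were up-regulated DEGs at 4 h. The test was limma on log2(RPKM + 1) over 13164 genes with at least 1 RPKM in at least 5 of 28 retinas, and a DEG had a Benjamini-Hochberg adjusted p of at most 0.05 and a change of at least 2-fold. Cxcl2 rose by 6.21 on the log2 scale (SE 0.61, 95% interval 4.97 to 7.45, adjusted p = 7.4e-09), the 18th largest increase of all genes tested. Cxcl1 rose by 3.97 (SE 0.55, 95% interval 2.86 to 5.08, adjusted p = 3.8e-06), the 67th largest. Of all genes tested, 8.08% were DEGs at 4 h and 3.68% up-regulated DEGs, and 1.65% had every 4 h retina above every naïve retina. Both genes did too, but they entered the test through their 4 h retinas, so this separation is a description only. The median change of all genes was -0.11. Left-out retinas moved the change of Cxcl1 between 3.36, without retina 5 of 4 h, and 4.60, without retina 1, and that of Cxcl2 between 5.58 and 6.91, without retinas 5 and 3.

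Cxcl3 and Cxcl5 did not enter that test, since only 1 retina reached 1 RPKM for each, at 4 h in both cases. Cxcl1 and Cxcl2 entered it through their 4 h retinas, which made up 5 of 5 and 6 of 8 retinas at 1 RPKM or more, so their entry already required a difference and no count over the members is given as support. With no filter (37928 genes), the differences on the log2(RPKM + 1) scale at 4 h were 0.76 for Cxcl3 (limma, adjusted p = 0.21) and 0.42 for Cxcl5 (adjusted p = 0.58). By an exact permutation test over retinas, two-sided and unadjusted, p was 0.036 for Cxcl3 and 0.375 for Cxcl5 at 4 h, and 0.000125 for Cxcl1 and for Cxcl2, the smallest that 8008 splits can give.

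At 18 h both genes had fallen from their 4 h levels. Cxcl2 was at 6.06, 0.686, 1.89 and 0 RPKM in experiment 1 and 0.770 RPKM in experiment 2, a mean of 1.88 ± 2.43 RPKM (SD, n = 5). Cxcl1 was at 0.830, 0.946, 0.276 and 0 RPKM in experiment 1 and 0.425 RPKM in experiment 2. For Cxcl2 no 18 h retina reached the lowest 4 h retina, which held for 2.79% of genes tested, whereas for Cxcl1 the 18 h retina at 0.946 RPKM lay above the 4 h retina at 0.877 RPKM. Compared directly, 4 h was above 18 h by 5.27 on the log2 scale for Cxcl2 (SE 0.71, limma adjusted p = 6.9e-06) and by 3.50 for Cxcl1 (SE 0.64, adjusted p = 5.0e-04). In that comparison 5.42% of genes were DEGs, 2.51% higher at 4 h and 2.92% lower. In experiment 1 alone the difference of Cxcl1 was 1.37 and was not called (adjusted p = 0.089), and that of Cxcl2 was 3.13 (adjusted p = 0.017).

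Against naïve retinas, neither gene was called at 18 h, where 4.69% of genes were DEGs and 2.84% up-regulated. The difference was 0.94 for Cxcl2 (95% interval -0.37 to 2.26, limma adjusted p = 0.49) and 0.47 for Cxcl1 (95% interval -0.71 to 1.65, adjusted p = 0.74). The 18 h retinas overlapped with naïve ones for both genes, and 2.05% of genes tested had all 18 h retinas above all naïve ones. The exact permutation test of each gene alone, two-sided and unadjusted, gave p = 0.0073 for Cxcl1 and p = 0.016 for Cxcl2, and within experiment 1 it gave 0.062 and 0.038. Neither gene was called when the fit held only the naïve and 18 h retinas (limma adjusted p = 0.19 for Cxcl1 and 0.16 for Cxcl2). Cxcl3 was at 0.330 RPKM in retina 2 and 0.182 RPKM in retina 3 at 18 h, about 4.59 and 2.14 reads.

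At 2 weeks the members were back within the naïve range or just above it. Cxcl2 was at 0.861 RPKM in retina 2, 0.161 in retina 5 and 0.0745 in retina 7, and at 0 in the other 4, while the highest naïve retina had 0.817 RPKM. Cxcl1 was at 0.164 RPKM in retina 7, about 2.41 reads, and at 0 in the other 6. The differences from naïve were -0.07 for Cxcl2 (95% interval -1.25 to 1.11) and -0.04 for Cxcl1 (95% interval -1.10 to 1.02), with limma adjusted p = 1 for both, and 0.0076% of genes tested were DEGs. The order of mean levels was the same for Cxcl1 and Cxcl2, from 4 h through 18 h to naïve and 2 weeks. The intervals rest on 1 estimate of spread over all 4 groups, 4 h included. With only naïve and 2-week retinas in the fit, the SE fell from 0.52 to 0.11 for Cxcl1 and from 0.58 to 0.18 for Cxcl2. Neither gene was called there. The 18 h retinas differed from naïve ones only before adjustment, as in the exact test above. Limma on naïve and 18 h retinas alone gave an unadjusted p of 0.017 for Cxcl1 and 0.013 for Cxcl2.

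**Figure D2:**
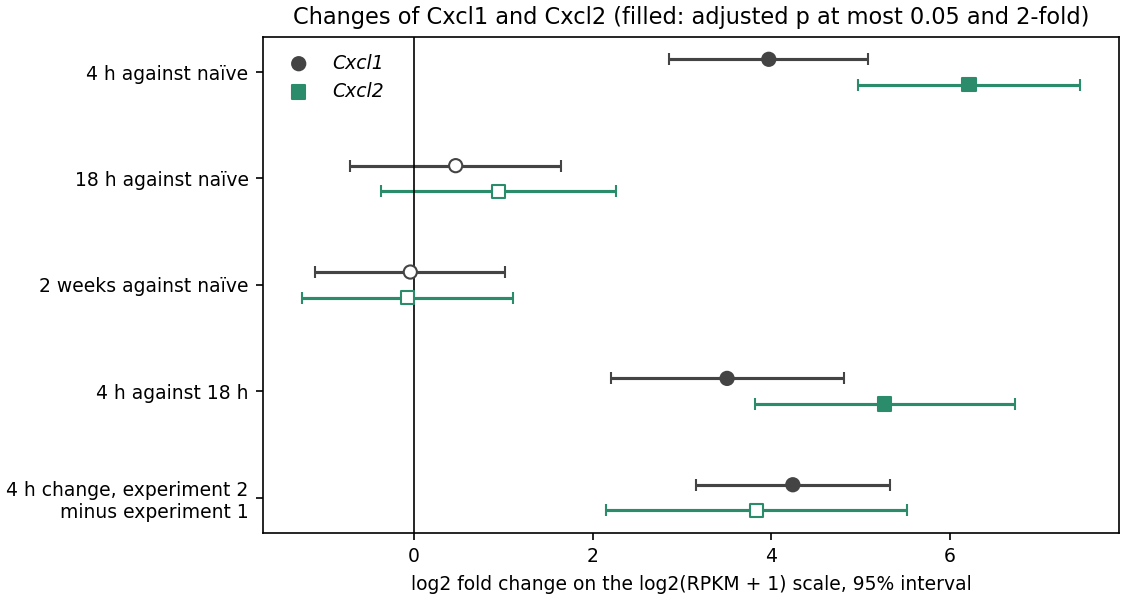
Fitted change of Cxcl1 and Cxcl2 on the log2(RPKM + 1) scale (horizontal axis) in 5 comparisons, with 95% intervals. Filled symbols passed an adjusted p of 0.05 and a 2-fold change, and the changes at 18 h and 2 weeks lie with intervals across 0.

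The height of the 4 h response differed between the experiments. Every retina of experiment 2 at 4 h was above every retina of experiment 1 for Cxcl1 and Cxcl2, as held for 12.4% of all genes tested. On the log2(RPKM + 1) scale Cxcl1 was above naïve retinas of its own experiment by 1.85 in experiment 1 and 6.09 in experiment 2, and Cxcl2 by 4.27 and 8.10. Within each experiment the exact permutation p, two-sided, was 0.0119 and 0.0286 for both genes, the smallest that these group sizes allow. The difference of the changes was 4.24 for Cxcl1 (SE 0.53, limma with a group by experiment interaction, adjusted p = 1.9e-04) and 3.83 for Cxcl2 (SE 0.82, adjusted p = 0.066). Cxcl1 was the only gene of 13164, or 0.0076%, whose change at 4 h was called larger in experiment 2, and 12 genes were called in the other direction. Ranked by the signed difference, from the most positive down, Cxcl1 was 2nd and Cxcl2 4th. The call of Cxcl1 was lost with a pseudocount of 0.1 (4.64, adjusted p = 0.36), and Cxcl2 was called with a pseudocount of 10 (3.49, adjusted p = 7.6e-05).

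Both experiments had low levels of these genes in naïve retinas. The mean Cxcl1 level in naïve retinas was 0.0559 ± 0.137 RPKM (SD, n = 6) in experiment 1 and 0.0586 ± 0.117 RPKM (SD, n = 4) in experiment 2, and the mean Cxcl2 level 0.123 ± 0.276 and 0.356 ± 0.362 RPKM. The means at 4 h were 3.27 ± 2.30 against 79.6 ± 48.2 RPKM of Cxcl1 (SD, n = 3 each) and 28.6 ± 27.9 against 425 ± 309 RPKM of Cxcl2. Compared directly at 4 h, 3 retinas against 3 cannot give an exact permutation p under 0.10, which Cxcl1, Cxcl2 and Cxcl3 all had. The ratio of Cxcl2 to Cxcl1 at 4 h was 5.40, 5.83 and 4.27 in experiment 2 and 68.5, 3.50 and 1.95 in experiment 1, where retina 1 combined the lowest Cxcl1 with the highest Cxcl2 of its experiment.

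**Figure D3:**
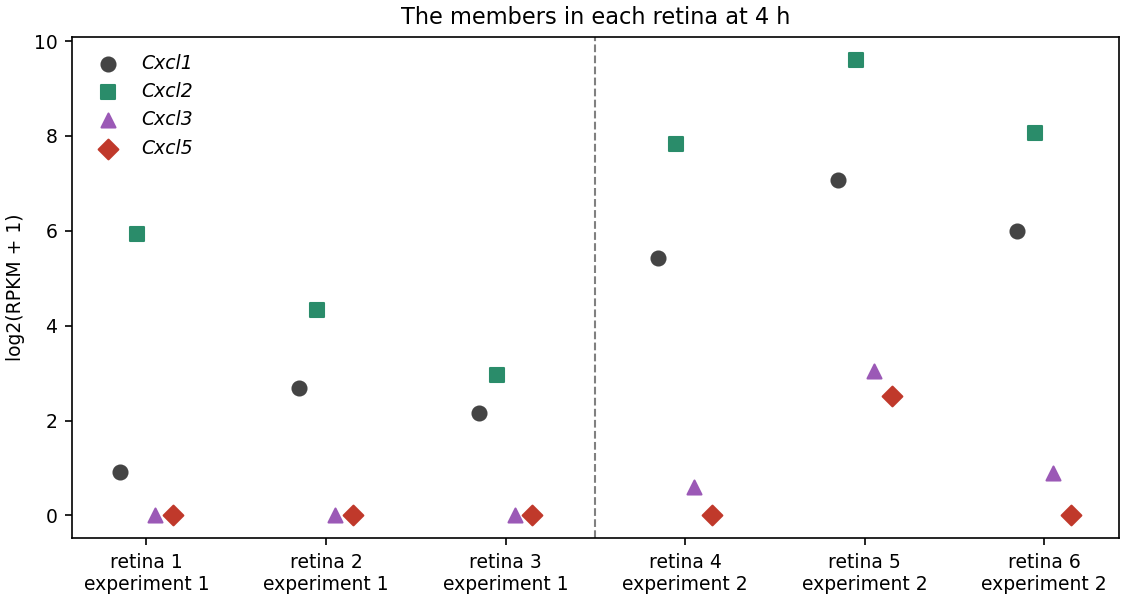
Level of the 4 members as log2(RPKM + 1) in each of the 6 retinas at 4 h, with experiments 1 and 2 on either side of the dashed line. Cxcl2 is the highest member in every retina, and Cxcl5 is above 0 in retina 5 alone.

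Rod and Müller glia transcripts were higher in experiment 2, both at 4 h and by their means in naïve retinas. The summed level of 7 rod markers was 894 to 3022 RPKM in experiment 1 and 3097 to 4364 RPKM in experiment 2 at 4 h, and that of 7 Müller glia markers 904 to 1152 and 1374 to 2388 RPKM. Naïve retinas spanned 723 to 4427 RPKM of the rod and 273 to 4961 RPKM of the Müller glia markers. The naïve means in experiments 1 and 2 were 1589 and 3150 RPKM of the rod and 1634 and 2854 RPKM of the Müller glia markers. Of these markers, none that was tested was called in the interaction with experiment (limma). The median differences there were -0.51 for rod and 0.03 for Müller glia markers. The summed level of 10 microglia markers was 2293 to 7334 RPKM in experiment 1 and 4705 to 8610 RPKM in experiment 2. It had been 6669 to 14670 RPKM in naïve retinas, and 4 of the 10 (Aif1, Cx3cr1, P2ry12 and Sall1) were down-regulated DEGs at 4 h, where 4.39% of genes tested were. Markers of monocytes (0.198 to 15.7 RPKM at 4 h, 0.139 to 29.1 RPKM naïve) and of endothelium (0.599 to 5.77 and 0.298 to 4.24 RPKM) overlapped between the groups. The part of this other material in the chemokine levels was not tested.

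Neutrophils answer to these chemokines and can also make them, and apart from Csf3r their markers were at or near 0 in the 4 h libraries. Of 14 neutrophil markers, 12 were in the table. At 4 h S100a9, Mpo, Ngp, Ltf, Retnlg, Mmp8 and Prtn3 were at 0 in all 6 retinas, S100a8 reached 0.125 RPKM, Camp 0.118 RPKM and Mmp9 0.904 RPKM, and Ly6g was at 6.13e-39, an estimation product. The summed level of the list was 0.293 to 37.7 RPKM at 4 h against 5.60 to 83.5 RPKM in naïve retinas. Outside retina 2 at 4 h it was almost wholly Csf3r, the G-CSF receptor (median 11.4 RPKM at 4 h and 16.9 RPKM in naïve retinas). In that retina, which had the sum of 0.293 RPKM, S100a8 made up 0.125 RPKM. Csf3r was the sole gene of the list tested and was not called. At 18 h some of the markers were above 0. S100a8, a calcium-binding protein of neutrophils, was at 3.07 RPKM in retina 2 and 9.24 RPKM in retina 3, and its partner S100a9 at 2.55 and 5.15 RPKM, against 0 in all naïve retinas. Camp, Mmp8 and Retnlg were highest in retina 2, at 3.28, 2.30 and 0.729 RPKM, and were above 0 in retinas 2 and 3 only. Mpo, Ngp and Ltf were at 0 in all 5 retinas, and the Csf3r median was 10.2 RPKM. The summed level of the list, 2.86 to 29.0 RPKM, overlapped with that of naïve retinas. Since the naïve sums were almost wholly Csf3r, that overlap does not describe the other markers. Retinas 2 and 3 are the same 2 retinas that had Cxcl3, and retina 3 is the one with Cxcl5. Retina 1 at 18 h, with the highest Cxcl2 of that time at 6.06 RPKM, had 0.994 RPKM of S100a9 and S100a8 at 0. Retina 5, where no read of Cxcl3 was assigned, had 0.638 RPKM of S100a8 and 0.189 RPKM of Ly6g. The part of these cells in the 18 h levels was not tested.

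**Figure D4:**
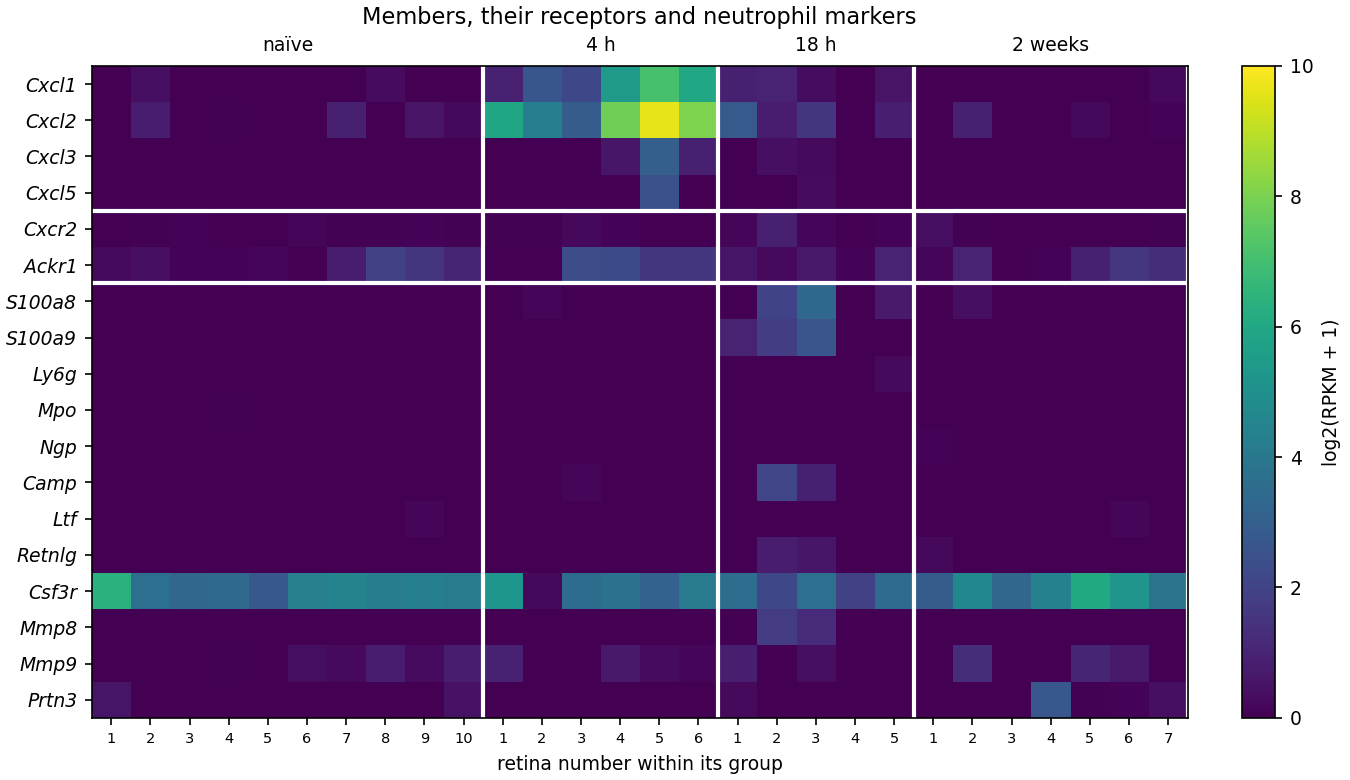
Level as log2(RPKM + 1), by colour, of the 4 members, 2 receptors and 12 neutrophil markers (rows) in each of the 28 retinas (columns, by group). Cxcl1 and Cxcl2 are bright at 4 h, where the neutrophil markers other than Csf3r are dark, and S100a8 and S100a9 appear at 18 h in retinas 2 and 3.

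The receptors of these ligands were scarce in the sorted cells. Cxcr2, the signalling receptor, was at most 0.146 RPKM at 4 h, and it did not enter the test. Its highest level in any retina, 0.815 RPKM, was in retina 2 at 18 h, which also had the highest Camp, Mmp8 and Retnlg. Cxcr1 was not analysed here. Ackr1, which binds chemokines on vessels and red cells without signalling, was at 0 to 4.20 RPKM at 4 h and was not called (0.64, limma adjusted p = 0.33). Of 5 receptors for other CXC chemokines 1 was tested, Cxcr5, the CXCL13 receptor, and it rose at 4 h by 1.48 (adjusted p = 2.7e-05).

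The other chemokine genes examined between the members were low or were not called. Further genes in that stretch were not looked up. Ppbp and Cxcl15, which also encode ligands with the Glu-Leu-Arg motif, peaked at 2.35 and 0.0497 RPKM and did not enter the test. Pf4, a platelet chemokine gene between Ppbp and Cxcl3, was abundant in naïve retinas (median 174 RPKM, range 0 to 410) and at 4 h (median 99.5 RPKM) and was not called at any time.

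**Figure D5:**
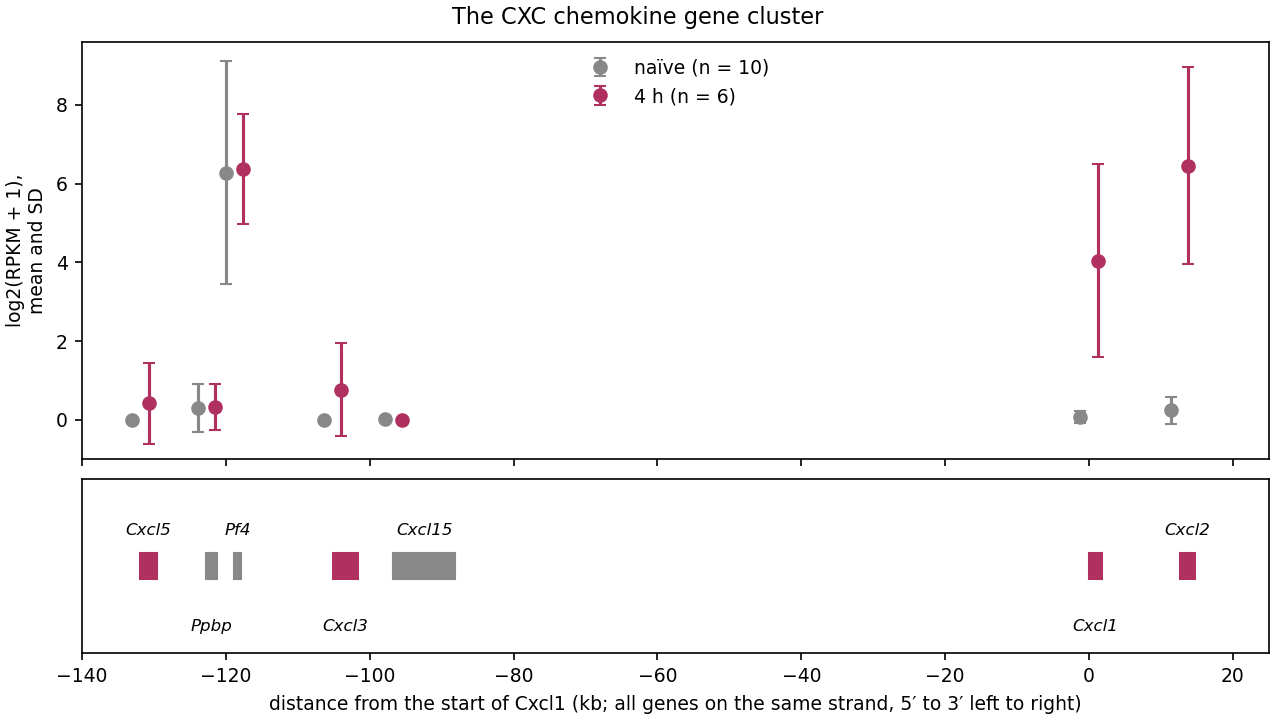
Mean level and SD as log2(RPKM + 1) in naïve retinas (grey) and at 4 h (red) above a map of the gene cluster, drawn to scale as distance from the start of Cxcl1 in kb, with members in red. At 4 h Cxcl1 and Cxcl2 at the right end stand far above naïve, while the levels of Pf4 lie side by side.

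Transcripts for several known inducers of Cxcl1 and Cxcl2 were also up-regulated. Of 15 LPS and cytokine inducers tested, 4 rose at 4 h and 2 fell, where 3.68% of all genes tested were up-regulated and 4.39% down-regulated DEGs. Tnf rose by 9.26, Il1b by 8.91 and Il1a by 6.52 on the log2 scale, and Cd14, the LPS co-receptor, by 3.82, while Tlr4 fell by 2.15 and Ly96, its partner, fell by 1.33. The median of the list was 0.40. At 18 h Tnf (3.62) and Il1b (2.56) were still called, where 2.84% of all genes tested were up-regulated DEGs. Tnf was at 291 to 3291 RPKM at 4 h and 8.98 to 49.5 RPKM at 18 h, so it stayed above its naïve range of 0 to 4.29 RPKM when Cxcl1 and Cxcl2 overlapped with theirs.

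NF-kappa B subunits and inhibitors, like Cxcl1 and Cxcl2, were called at 4 h and not at 18 h. At 4 h 10 of 11 were up-regulated DEGs, against 3.68% of all genes tested, with a median of 3.29. Nfkbia, the inhibitor that restrains the dimers in the cytoplasm, rose by 4.82, Nfkbiz, a nuclear co-activator, by 4.73, Tnfaip3, which ends the signal by editing ubiquitin, by 4.67, and the subunit Rel by 3.18. Rela, the remaining gene, had a difference of 1.93 (limma adjusted p = 0.091). At 18 h 0 of 11 were called by limma, the median was -0.03 (-0.08 over all genes), and 10 of 11 were higher at 4 h than at 18 h. Of 12 tested genes with GGGAATTTCC in the promoter window, members left out, 3 (25%) were up-regulated DEGs at 4 h, namely Gbp5 (3.87), Hpn (1.55) and Nfkbia. The share was 4.58% of 2665 genes with the NF-kappa B type pattern and 3.76% of all 9037 genes with a window. These shares are a description, since the letters were picked from the members.

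Regulators of chemokine mRNA stability moved in both directions at 4 h, where 3.68% of all genes tested were up-regulated and 4.39% down-regulated DEGs. Of 9 tested, 3 rose at 4 h, namely Zfp36 (3.61), which marks AU-rich transcripts for decay, Zc3h12a (2.21), a nuclease of inflammatory mRNA, and Mapkapk2 (2.31), a kinase that holds Zfp36 in check. Zfp36l2 fell by 2.49 and Mapk14, the p38 kinase upstream of Mapkapk2, fell by 1.88. At 18 h Mapk14 alone was called, lower by 1.65 (log2 change -1.65). Of 5 listed growth and survival cytokines, 2 were tested, and Il6 rose at 4 h by 2.48 and Csf1 by 2.38. Csf3, which encodes G-CSF, was above 0 in 2 of 6 retinas at 4 h, up to 47.7 RPKM.

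Of 7 other CXC ligands tested, which lack the Glu-Leu-Arg motif and have other receptors, 4 rose at 4 h, against 3.68% of all genes tested. Cxcl10 rose by 8.51, Cxcl16 by 3.29, Cxcl11 by 2.80 and Cxcl9 by 2.32. At 18 h, where 2.84% of all genes tested were up-regulated DEGs, Cxcl10 (3.95) and Cxcl16 (2.63) were still called. Cxcl13, a ligand for B cells, was called at 9.35. Cxcl14 and Pf4 were called at neither time. None of the 7 was called in the interaction with experiment (limma). The difference between experiments was 0.63 for Cxcl14 (SE 0.99), 0.03 for Cxcl10 (SE 1.70), -0.06 for Cxcl9 (SE 0.93), -0.57 for Cxcl11 (SE 0.47), -0.81 for Cxcl16 (SE 1.02), -1.08 for Pf4 (SE 2.21) and -1.36 for Cxcl13 (SE 1.25), each with adjusted p = 1.

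The genes nearest to each member by their 3 log2 fold changes against naïve were found over all 13164 genes. For Cxcl1 they were Gm6377 (Euclidean distance 0.162), Slc7a11, the cystine transporter (0.256), and Clic4 (0.381). For Cxcl2 they were Socs3, an inhibitor of cytokine signalling (0.670), Ccrl2, a chemerin-binding receptor (0.802), and Il1a (0.810). They were chosen by the means of the groups, and none was called in the interaction with experiment. Their differences there were 0.42, 0.08 and -1.76 for Gm6377, Slc7a11 and Clic4 and -0.76, 0.44 and 0.52 for Socs3, Ccrl2 and Il1a, each with limma adjusted p = 1. Il1a at 4 h was at 1199 to 2760 RPKM in experiment 1 and 8153 to 9043 RPKM in experiment 2.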

How the data were processed

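Per the labels and methods, the authors converted base calls with bcl2fastq 2.20, trimmed adapters and low-quality bases, aligned single-end reads to mm10 with STAR 2.5.3a and estimated transcripts in Partek, which can divide a read between genes, with libraries by SMART-Seq v4 and Nextera XT from the sorted cells. The deposited values are RPKM, so a log-scale test was used. The authors' tables of their own group comparisons (p-values, ratios and fold changes) were not used. All 28 columns were matched to samples by name. Limma 3.58.1 in R 4.3.3 fitted log2(RPKM + 1) of 28 retinas in 4 groups, with a mean-variance trend and empirical Bayes, for the 13164 of 40021 genes at 1 RPKM or more in 5 retinas. The interaction fit used the means of each group in each experiment. The test was checked on simulated data. Exact permutation tests were added after the data were seen. Approximate reads are RPKM times alignments times transcript length. Figures were drawn with matplotlib 3.10.9. All members are named, as are listed genes that were called and the 3 nearest patterns per member. The members and lists were chosen with earlier results of these data known. Protein sequences were not analysed here. Alternatives were pseudocounts, filters, covariates, blocks, scalings, options of the fit, fits of the compared groups alone, exact permutation tests, left-out retinas and single experiments.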

Additional observations from a re-analysis of the deposited data

Results flagged for a closer look

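Of 16 sets of a member in a group, 12 had any spread, and in 5 of these the highest retina lay apart from the rest by Dixon's test on log2(RPKM + 1), where chance gives about 1 in 20 for values without ties. For Cxcl1 at 2 weeks and Cxcl5 at 4 h and 18 h a single retina was above 0, which sets such a retina apart whatever its level. Cxcl3 at 4 h and Cxcl2 at 2 weeks also had several retinas tied at 0, so that rate applies to none of the 5. At 4 h retina 5 stood apart for Cxcl3 (7.24 RPKM, the next retina at 0.860) and for Cxcl5 (4.68 RPKM, the others at 0). At 18 h retina 3 stood apart for Cxcl5 (0.222 RPKM). At 2 weeks retina 7 stood apart for Cxcl1 (0.164 RPKM) and retina 2 for Cxcl2 (0.861 RPKM). The change of Cxcl1 at 4 h also differed between experiments by 4.24 on the log2 scale (limma interaction, adjusted p = 1.9e-04).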

How the results depend on the processing

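Of 137 values under another setting, 130 kept their direction and side of the threshold, as did 277 of 280 with a retina left out. The 137 include the exact permutation tests, scored on an unadjusted p of at most 0.05 and a 2-fold difference. At 18 h against naïve these stayed uncalled by the size of the difference (0.47 for Cxcl1, 0.94 for Cxcl2) and not by p. The change at 4 h against naïve stayed called in each setting run, between 1.70 and 6.72 for Cxcl1 and between 3.43 and 8.67 for Cxcl2. The difference of the 4 h change between experiments was not called for Cxcl1 with a pseudocount of 0.1 (4.64) or with the replicate number as a block (4.75, adjusted p = 1.0). For Cxcl2 it was called with a pseudocount of 10 (3.49), with eye side as a covariate (3.94, adjusted p = 0.048) and with quantile normalization (4.01, adjusted p = 0.023). Cxcl1 at 4 h against 18 h was not called in experiment 1 alone (1.37), and Cxcl2 at 2 weeks was above naïve by 0.086 there. The causes were not tested. With retinas left out, the Cxcl2 difference between experiments ran from 3.11 to 4.60, and it was called without retina 1 of 4 h (4.60), retina 1 of 18 h or retina 4 of 18 h (3.83 each). The Cxcl2 difference at 18 h fell to 0.53 without retina 1 of 18 h. The labels do not say that a replicate number marks a shared animal or day, and 15 of 34 same-numbered pairs had a correlation of deviations over 0.1 (range -0.33 to 0.70), with 10 best with their own number, so the block was not taken as a pairing, and it moved no other call. A filter at 5 RPKM removed Cxcl1. With retinas rescaled to the same summed RPKM, the median gene at 4 h lay at -0.28 in place of -0.11. Few reads limit the low values, with at most about 19.0 reads of any member in a naïve retina and 15.9 at 2 weeks, and intervals cover the spread between retinas only.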
